A study of Mus musculus with 24 samples.

Results

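Reads on 8 genes of growth factor signaling, the ErbB receptor genes Egfr, Erbb2, Erbb3 and Erbb4, the ligand gene Nrg1, the insulin and IGF1 receptor genes Insr and Igf1r, and the FGF receptor gene Fgfr1, were followed in cardiomyocyte (CM) nuclei of newborn mice. They were taken by name from 56923 gene identifiers in the count tables, and all 8 were among the 20368 that passed the filter on low counts. Nuclei of C57BL/6N hearts of both sexes were sorted by the centrosomal protein PCM1, which coats CM nuclei, and bulk 3′ RNA sequencing was done at postnatal days 1, 7 and 14 (P1, P7, P14). Control CMs were XMLC2(-)Casp2(fl/fl) and Casp2-depleted CMs were XMLC2(+)Casp2(fl/fl). Casp2 encodes caspase-2, the protease of the PIDDosome. Both genotypes therefore carried the same floxed Casp2 alleles, and only the second carried the Cre recombinase, which is driven in CMs. Each library was a pool of 15 hearts at P1, 6 at P7 and 2 at P14, so that the replicates were pools and not single animals. Of 4 libraries per group, 21 of 24 in all entered the comparisons: 3 control and 4 Casp2-depleted at P1, 4 and 4 at P7, and 3 and 3 at P14, without the 3 that the study had set aside for low quality.

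Neuregulins are ErbB ligands. In the heart they are released mainly by endothelial cells and bind ERBB4 or ERBB3 on neighboring cells. ERBB2 binds no ligand of its own and serves as the partner in the dimer, while ERBB3 has little kinase activity and depends on its partner. The pair of ERBB2 and ERBB4 is known for its part in trabeculation and in CM growth and division around birth. The insulin and IGF1 receptors are closely related tyrosine kinases that form hybrids with each other and pass their signal through IRS adaptors to PI3K and AKT. FGFR1 signals through FRS2 to RAS and ERK.

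The upstream sequences of 3 of the genes are shown because the comparisons turn on them: Igf1r, which was lower at P14, and Erbb2 and Erbb4, the dimer partners with the fewest and the most reads. Each run holds the 250 bases before the RefSeq start of the gene, 5′ to 3′ on its own strand, with the GC box GGGCGG, searched on both strands, in capitals. The Igf1r bases are at chr7:67952007-67952256 on the plus strand, those of Erbb2 at chr11:98412234-98412483 on the plus strand and those of Erbb4 at chr1:69108060-69108309 on the minus strand, all in build GRCm38.p6, which is that of the RefSeq table and not that of the counts.
Igf1r: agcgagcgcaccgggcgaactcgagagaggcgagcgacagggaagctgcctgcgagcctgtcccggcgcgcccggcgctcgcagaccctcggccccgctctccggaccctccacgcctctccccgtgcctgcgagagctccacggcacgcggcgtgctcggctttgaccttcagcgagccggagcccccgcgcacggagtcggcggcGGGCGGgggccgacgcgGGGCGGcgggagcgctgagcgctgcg
Erbb2: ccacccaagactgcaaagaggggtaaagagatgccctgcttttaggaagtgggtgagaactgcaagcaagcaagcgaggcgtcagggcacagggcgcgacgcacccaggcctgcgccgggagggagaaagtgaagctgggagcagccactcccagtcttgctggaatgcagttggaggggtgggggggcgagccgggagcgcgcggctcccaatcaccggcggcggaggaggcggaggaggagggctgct
Erbb4: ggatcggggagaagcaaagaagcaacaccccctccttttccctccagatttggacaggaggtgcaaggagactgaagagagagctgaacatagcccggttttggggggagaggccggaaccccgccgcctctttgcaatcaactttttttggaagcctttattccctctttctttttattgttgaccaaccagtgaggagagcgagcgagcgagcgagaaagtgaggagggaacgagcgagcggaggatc
The Igf1r sequence held 77.6% G and C, 42 CpG and 2 GC boxes. Erbb2 held 66.0% G and C, 16 CpG and no GC box, and Erbb4 held 54.0% G and C, 12 CpG and no GC box. Over the 32851 promoters of the table the median was 52.4% G and C, and 32.7% held at least 1 GC box within the same length. Egfr was the 4th gene matched, and Insr, Erbb3, Nrg1 and Fgfr1 were not shown.

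Library depth was 891817 to 2924097 reads on genes, being 1452114 to 2924097 at P7 and 891817 to 1278961 at P14. Genes with a read numbered 10981 to 15268 at P1, 14006 to 17770 at P7 and 7628 to 13651 at P14. Every P14 library thus had fewer genes read than any P7 library, and the part of this in counts of 0 was not tested. Of the uniquely placed reads, those outside any gene made up 34.3 to 64.3% at P7 and 63.7 to 76.1% at P14, so that this share, called the no-gene share here, and the day moved together. Since introns were counted and the strand setting is not given, these reads may lie between genes or, with a stranded count, opposite them. A count of 3 reads, the limit that a count of 0 allows, stood for 1.03 to 3.36 CPM, the count per 1000000 reads on genes, and these limits cover counting error only. Levels of single genes are in CPM after edgeR's TMM scaling, and these limits and the sums of markers are in CPM without it. The summed level of 8 CM markers was 12030 to 81800 CPM over the groups, and no list of markers of another cell type (endothelium, mural cells, fibroblasts, macrophages, epicardium, or Schwann and neural crest cells) summed to more than 1115 CPM in any library. Casp2 itself had 17 reads in all, over 5 of the 8 P7 libraries: 9 in controls and 8 in Casp2-depleted CMs. It had none at P1 and P14 in either genotype, and whether 3′ reads lie within the deleted part is not given in the sources used here, so the reads did not check the deletion.

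Counts covered introns, and the genes differ greatly in length. In GRCm39, Erbb4 spans chr1:68071345-69147619 (1076 kb, of which 1.19% is exon) and Nrg1 spans chr8:32303906-33374825 (1071 kb, 1.56% exon), both on the minus strand. Igf1r lies at chr7:67601518-67883416 on the plus strand (282 kb), Egfr at chr11:16702198-16868158 on the plus strand (166 kb) and Insr at chr8:3172061-3329647 on the minus strand (158 kb). The shortest are Fgfr1 at chr8:26003670-26066824 on the plus strand (63.2 kb), Erbb2 at chr11:98303203-98328542 on the plus strand (25.3 kb) and Erbb3 at chr10:128403392-128425811 on the minus strand (22.4 kb). These spans are those of GENCODE vM39, while the counts were made on an earlier Ensembl release. The libraries were primed on poly(A), and runs of at least 15 A on the transcribed sequence numbered 23 in Nrg1, 12 in Erbb4, 7 in Igf1r, 3 in Egfr, 1 each in Erbb3, Insr and Fgfr1, and none in Erbb2. Their part in the counts was not tested.

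Erbb4 was by far the most read of the 8 genes, with 57649 reads over the 21 libraries. It was followed by Igf1r with 12271, Insr with 10875 and Nrg1 with 10498. Egfr had 2124 reads and Fgfr1 1757, whereas Erbb3 had 252 and Erbb2 had 104, each of these last in only 9 of 21 libraries. Erbb4 took on average 55.8% of the reads on the 8 genes at P1, 61.9% at P7 and 59.7% at P14. By genotype the means were 56.7, 61.6 and 70.0% in controls and 55.2, 62.2 and 49.3% in Casp2-depleted CMs. At P14 the SDs were 6.2 and 11.9 (n = 3 each), and the difference in this share was not tested.

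Per length the order was different. On the scale of CPM per kb of gene span, Insr had the highest mean level, 2.09 ± 1.13 (SD, n = 21 libraries), followed by Erbb4 with 1.67 ± 0.70 and Igf1r with 1.28 ± 0.70. Fgfr1 followed at 0.83 ± 0.53, Egfr at 0.40 ± 0.28, Erbb3 at 0.33 ± 0.79, Nrg1 at 0.31 ± 0.12 and Erbb2 at 0.12 ± 0.22. No 2 neighbors in this order were further apart than their SDs, but Insr and Erbb4 were further from Egfr and Nrg1 than the SDs of both. Insr stood at the 85.9th, Erbb4 at the 82.4th and Igf1r at the 76.6th percentile of the 20183 tested genes with a known span, Nrg1 at the 34.5th and Erbb2 at the 14.5th. Nrg1 thus had many reads but few per kb of span. Whether reads of libraries primed on poly(A) scale with the span was not tested, so this order describes reads per span and not expression. At P14 alone the order was different, with Erbb4 at 1.33 ± 0.61 (SD, n = 6) above Insr at 1.00 ± 0.72, and Fgfr1 at 0.64 ± 0.71 above Igf1r at 0.59 ± 0.27, all within their SDs.

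**Figure D1:**
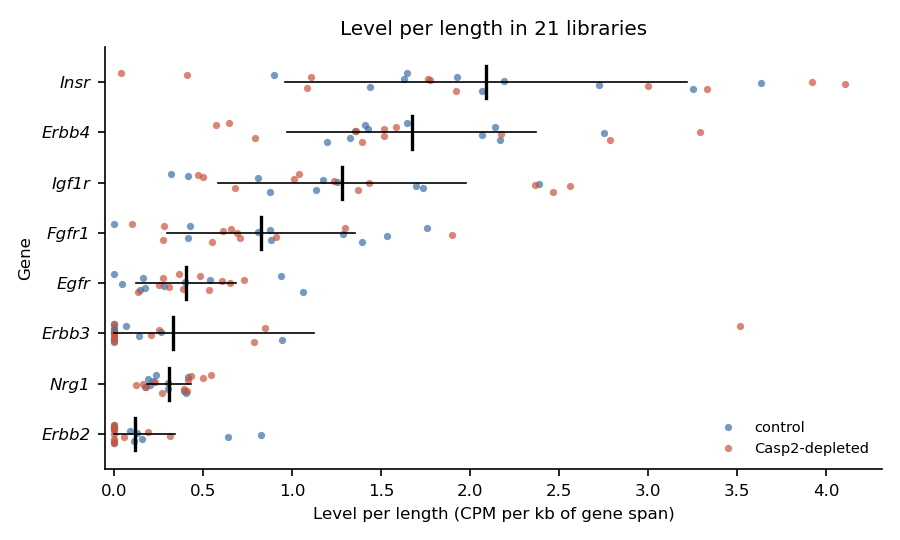
Level per length of the 8 genes, as CPM per kb of gene span, on the horizontal axis. Each point is 1 of 21 libraries, colored by genotype, the vertical bar is the mean and the horizontal line the SD, drawn no lower than 0. Insr, Erbb4 and Igf1r had means of 2.09, 1.67 and 1.28, and Erbb2 had the lowest mean, 0.12.

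Some reads could not be assigned with certainty, since the strand setting of the counting was not given. Pgpep1l (515 reads over the 21 libraries) overlaps the 3′ end of Igf1r on the opposite strand, Egfros (46 reads) and Eldr (241 reads) lie opposite Egfr, and Mien1 (44 reads) overlaps the end of Erbb2. No annotated gene with 10 or more reads overlapped Erbb4, Nrg1, Insr, Erbb3 or Fgfr1.

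Insr and Igf1r were lower at P14 than at P7 and at P1 with both genotypes averaged, while the other 6 genes did not pass the test between any days. Changes are given as log2 fold change with its standard error from 1 fit of edgeR's quasi-likelihood test over all genes tested, and calls needed both an adjusted p under 0.05 and a change of more than 1 in either direction. Whether the libraries of 2 groups overlapped is given as a description, since such separations were not counted over all genes. With both genotypes averaged, 2 of the 8 genes were called between P7 and P14, both lower, beside 8.92% of all genes tested. Of the 1817 genes called there in all, 1764 were lower. The same 2 of 8 were called between P1 and P14, both lower, beside 4.24% of all genes. Of the 863 called there in all, 814 were lower, so most calls in the series shared this direction. None of the 8 was called between P1 and P7 by edgeR, DESeq2 or limma-voom. None of them had an unadjusted p below 0.05 there, and 0.0933% of all genes were called. The median log2 fold change of the 8 genes from P7 to P14 was -0.68 against -0.87 over all genes tested, and relative to that overall median Insr was at -0.76 and Igf1r at -0.55. Relative to the median within each genotype, Insr was at -0.02 in controls and -1.87 in Casp2-depleted CMs. Igf1r was at -0.91 and -0.56.

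The level of Insr, the insulin receptor gene, was 257, 345, 429 and 573 CPM in the 4 control libraries of P7 and 278, 280, 618 and 648 CPM in the Casp2-depleted ones. At P14 it was 142, 260 and 304 CPM in controls and 5.9, 64.3 and 174 CPM in Casp2-depleted CMs, and at P1 it ranged from 171 to 525 CPM over 7 libraries. All 3 Casp2-depleted libraries of P14 lay below the 4 of P7, whereas the controls of the days overlapped. The change from P7 to P14 was -1.63 ± 0.40 (adjusted p = 0.00159, edgeR) with both genotypes averaged. It was -2.48 ± 0.59 in Casp2-depleted CMs alone (adjusted p = 0.00192), beside 2.83% of all genes called, and -0.77 ± 0.55 in controls alone (adjusted p = 0.446), beside 1.88%. From P1 to P14 the changes of Insr were -1.38 ± 0.40 (adjusted p = 0.0227) with both genotypes averaged, -2.18 ± 0.58 (adjusted p = 0.0138) in Casp2-depleted CMs, beside 1.94% of all genes called, and -0.59 ± 0.58 (adjusted p = 0.777) in controls, beside 0.319%. The genotypes were not shown to differ in these changes, the interaction being -1.71 ± 0.77 (adjusted p = 0.462) from P7 and -1.58 ± 0.80 (adjusted p = 0.412) from P1. P14 Casp2-depleted replicate 4, with 9 reads on Insr, decided the calls: without it Insr was called in none of these comparisons. Without P14 Casp2-depleted replicate 3 the calls of Insr within Casp2-depleted CMs and the averaged call from P1 to P14 were lost, and the last was also lost without P14 control replicate 2 or P1 control replicate 3.

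Igf1r, which encodes the IGF1 receptor, was at 331, 353, 479 and 673 CPM in P7 controls and at 285, 349, 404 and 666 CPM in P7 Casp2-depleted CMs. At P14 it was at 91.1, 117 and 228 CPM in controls and 132, 141 and 292 CPM in Casp2-depleted CMs. Every P14 control lay below every P7 control, and in the Casp2-depleted CMs 1 library of P14, replicate 4 at 292 CPM, lay above the lowest of P7. The change from P7 to P14 was -1.42 ± 0.39 (adjusted p = 0.00628) with both genotypes averaged, -1.66 ± 0.55 (adjusted p = 0.0962) in controls and -1.17 ± 0.54 (adjusted p = 0.274) in Casp2-depleted CMs. From P1, where it ranged from 191 to 722 CPM, the change to P14 was -1.34 ± 0.39 (adjusted p = 0.0246), a call that was made in 6 of the 13 fits without 1 library. Those that ended it were P1 control replicate 4, P1 Casp2-depleted replicates 1 and 4, P14 control replicates 2 and 4 and P14 Casp2-depleted replicates 2 and 3. The call between P7 and P14 was lost without P14 Casp2-depleted replicate 3 or P14 control replicate 2, and Igf1r was also called in controls alone once the replicate number was blocked or when P14 control replicate 1 was left out.

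**Figure D2:**
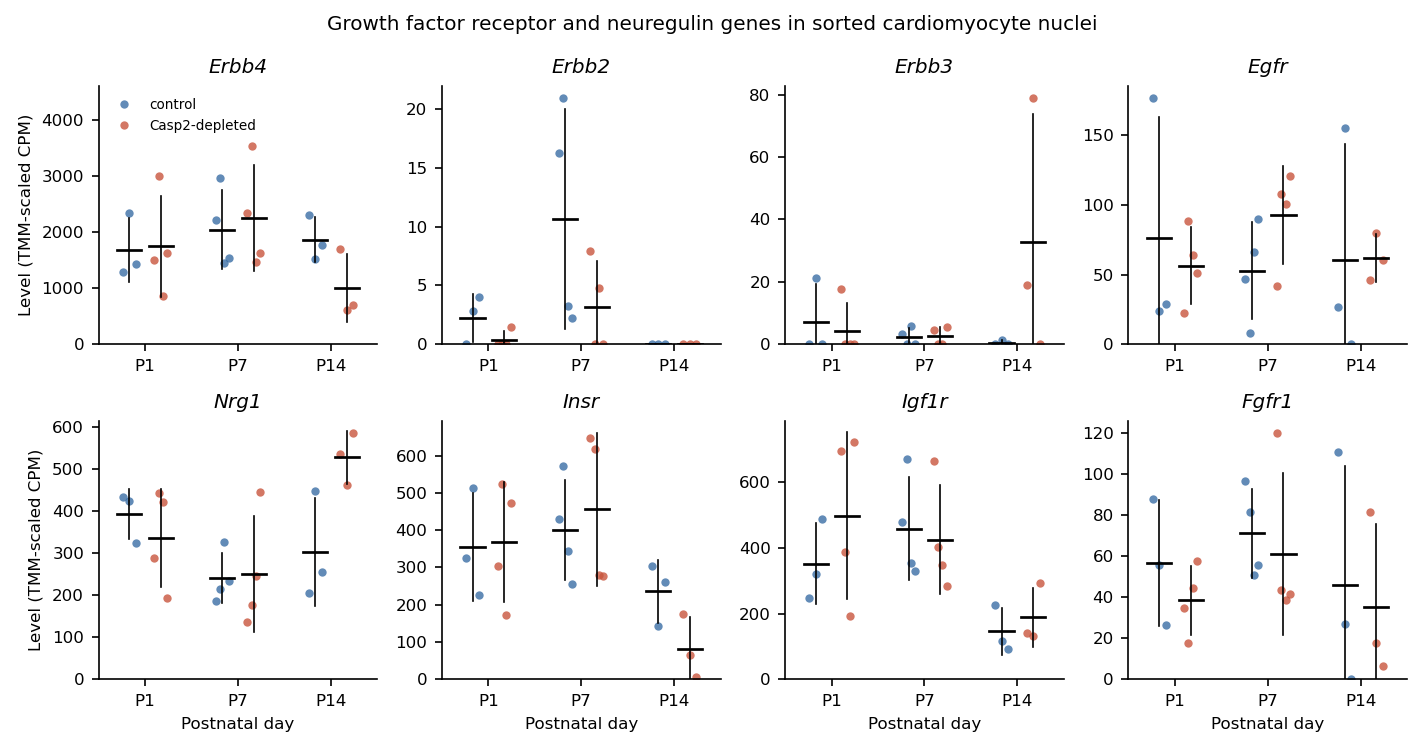
Level of each of the 8 genes in TMM-scaled CPM (vertical axis, a scale of its own for each gene) at P1, P7 and P14. Each point is 1 library, horizontal bars are group means and vertical lines SDs, drawn no lower than 0. The P14 libraries of Insr and Igf1r reached 304 and 292 CPM, Erbb2 had no read at P14, and Nrg1 was highest in the 3 Casp2-depleted libraries of P14 at 461 to 585 CPM.

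Beside the fall of both receptors, the summed CM markers were at 12030 to 44350 CPM at P14 and 45180 to 81800 CPM at P7. Their part in these results was not tested. The level of Igf1r was lower where the no-gene share was higher, with Pearson's r = -0.837 and Spearman's rho = -0.856 over 21 libraries (adjusted p = 6e-05 for both, permutation test over 12 relations with 100000 resamples). Without the 2 libraries farthest from the median share r was -0.800, and within days it was -0.871 at P1, -0.967 at P7 and -0.276 at P14. For Insr r was -0.604 and rho -0.738 (adjusted p = 0.00226 and 0.000576, permutation test), r was -0.555 without the 2 farthest libraries, and it was -0.314, -0.859 and -0.574 within P1, P7 and P14. The permutation shuffled libraries across days and genotypes, so the p-values of the 12 relations include differences between days. With this share as a term in the fit, a choice made after the data were seen, the change from P7 to P14 was -0.26 ± 0.43 for Igf1r (adjusted p = 1) and -0.79 ± 0.45 for Insr (adjusted p = 0.576), and no gene of the 8 was called in any comparison. With so little overlap in this share between P7 and P14, the day and the share cannot be told apart for these genes.

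**Figure D3:**
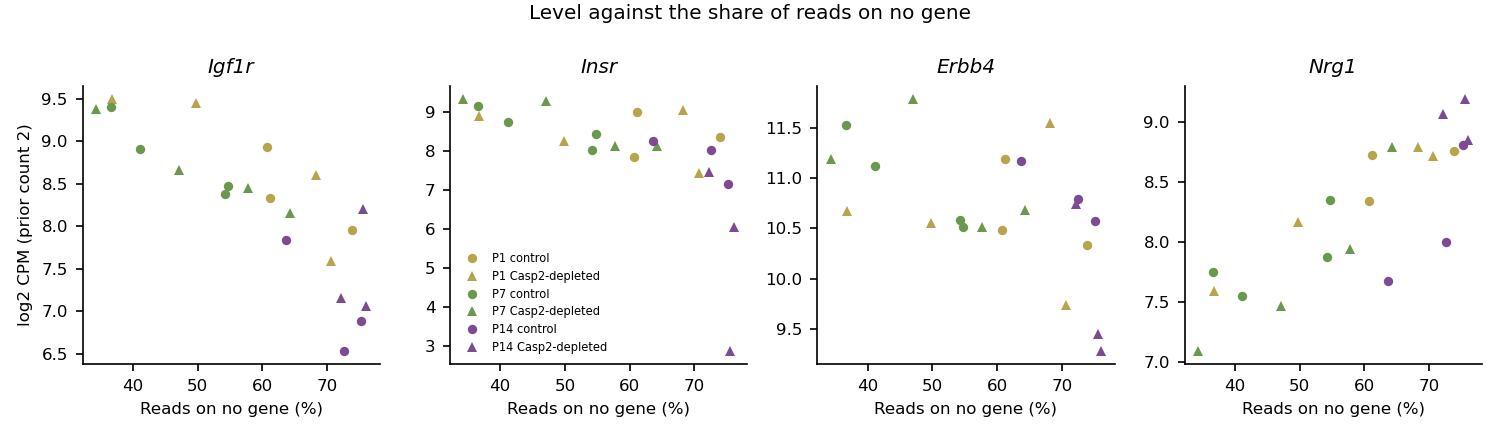
Level in log2 CPM with a prior count of 2 (vertical axis) against the percent of uniquely placed reads outside any gene (horizontal axis) for 4 genes. Each point is 1 of 21 libraries, colored by day and shaped by genotype. Igf1r, Insr and Erbb4 were lower and Nrg1 was higher where the share was high, with r of -0.837, -0.604, -0.552 and 0.834.

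A share within a library does not depend on how the library is scaled, so Insr was also set against Igf1r directly. Insr held 48.8% ± 5.2 (SD, n = 8) of the reads on the pair at P7, 46.4% ± 12.8 (n = 7) at P1 and 46.0% ± 25.2 (n = 6) at P14. No difference between days passed the test (adjusted p from 0.852 to 1, exact permutation test, two-sided, 12 tests). The mean change from P7 to P14 was -2.8 percentage points, while the spread at P14 was the widest of the 3 days. At P14 the share was 57.2, 54.8 and 74.0% in controls and 55.3, 32.7 and 1.98% in Casp2-depleted CMs. The last value rested on 9 Insr and 446 Igf1r reads (95% Wilson interval 1.04 to 3.72%), which cover counting error only. The difference of the genotypes at P14 was -32.0 percentage points (exact permutation p = 0.20, adjusted p = 0.48), and 3 libraries against 3 cannot go below 0.10. Without P14 Casp2-depleted replicate 4 it was -18.0 points and the change from P7 to P14 was 6.03 points, and without 1 library they ranged from -44.7 to -18.0 and from -8.38 to 6.03. In P14 Casp2-depleted replicate 4 Igf1r was at the highest level of the 6, 292 CPM, and Insr at the lowest, 5.9 CPM.

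**Figure D4:**
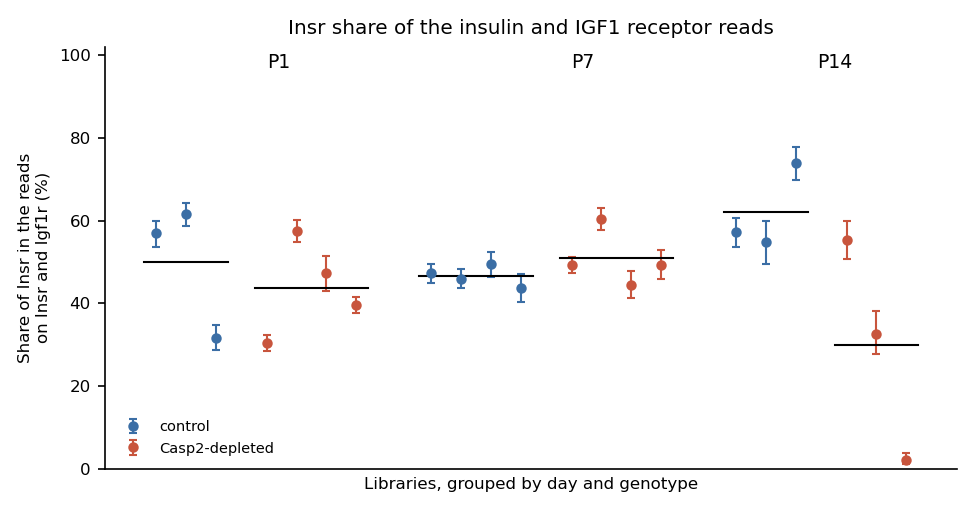
Share of Insr in the reads on Insr and Igf1r, in percent (vertical axis), for each of 21 libraries grouped by day and genotype. Error bars are 95% Wilson intervals of the counts and horizontal bars are group means. The P14 Casp2-depleted libraries were at 55.3, 32.7 and 1.98% and the P14 controls at 54.8 to 74.0%.

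Erbb4, the neuregulin receptor gene, did not pass the test in any comparison. Its level was 1456, 1534, 2222 and 2959 CPM in P7 controls and 1461, 1634, 2342 and 3539 CPM in P7 Casp2-depleted CMs. At P14 it was 1515, 1773 and 2304 CPM in controls and 619, 697 and 1704 CPM in Casp2-depleted CMs. The controls of P14 lay within the range of those of P7, with a change of -0.13 ± 0.38 (adjusted p = 0.933), and the change in Casp2-depleted CMs was -1.16 ± 0.39 (adjusted p = 0.0884). With both genotypes averaged it was -0.64 ± 0.27 (adjusted p = 0.101), which is 0.22 above the median of all genes tested. The difference of the genotypes at P14 was -0.89 ± 0.41 (adjusted p = 0.388, edgeR). Without P14 Casp2-depleted replicate 2, the library at 1704 CPM, Erbb4 was called as lower at P14 than P7 in Casp2-depleted CMs. Over the 21 libraries r with the no-gene share was -0.552 and rho -0.517 (adjusted p = 0.0166 and 0.0218, permutation test), with r of -0.124, -0.703 and -0.740 within P1, P7 and P14.

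Erbb2, the gene of the dimer partner, was read only at P1 and P7. At P7 it had 31, 29, 5 and 3 reads in the control libraries and 17, 7, 0 and 0 in the Casp2-depleted ones, in all 92. At P1 it had 12 reads in 3 of 7 libraries, and at P14 none in any of 6. Erbb2 also had no read in the P1 and P7 libraries with a no-gene share of 64.3 to 73.9%. The P7 libraries with 31, 29 and 17 reads had shares of 41.14, 36.65 and 34.32%. At shares of 49.8% (P1 Casp2-depleted replicate 1) and 47.1% (P7 Casp2-depleted replicate 2) there was no read either. The part of this share in the Erbb2 counts was not tested. Without TMM scaling, the pooled P7 level was 12.2-fold above the limit of 3 reads over the P14 libraries together. In controls alone it was 8.78-fold above that limit. Such ratios take the earlier reads as counted and leave out the spread between pools, so they are not lower bounds of the fall. The ratios depend on the scaling and were 21.2 and 15.0 with TMM. The other ratios to this limit are given without it, where they are lower. The call was not made (adjusted p = 0.0712 with both genotypes averaged and 0.328 in controls, edgeR). It was made with all 24 libraries, with limma-voom after TMM scaling and with only the groups compared in the fit. Erbb2 held 0.31% ± 0.28 (SD, n = 8) of the reads on Erbb2 and Erbb4 at P7, 0.07% ± 0.10 (n = 7) at P1 and 0% (n = 6) at P14, where 0 of 12075 reads allow a share of up to 0.0248%. The exact permutation test gave p = 0.0203 between P7 and P14, with an adjusted p of 0.244 over the 12 tests.

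Erbb3 and Egfr, the other ErbB receptor genes, were called in no comparison and varied widely within groups. Erbb3 had 125 and 27 reads in 2 of 3 P14 Casp2-depleted libraries (78.8 and 19.0 CPM) and 0 in the third, against 2 reads in all P14 controls together. At P1 it had 35 reads in 1 Casp2-depleted library and 30 in 1 control library, and at P7 at most 10 in any library. The difference of the genotypes at P14 had an adjusted p of 0.405. ERBB3 is a receptor of Schwann and neural crest cells, whose 6 markers summed to 180 to 236 CPM in P14 Casp2-depleted and 0 to 233 CPM in P14 control libraries, with Foxd3 at 0 in both groups. The part of such cells in the Erbb3 reads was not tested. Egfr, the EGF receptor gene, was read in 20 of 21 libraries, at 7.9 to 121 CPM at P7 and 0 to 155 CPM at P14, and its change was -0.19 ± 0.71 (adjusted p = 0.965).

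Nrg1, the ligand gene, was not called in any comparison by edgeR. Its level was 186, 215, 234 and 326 CPM in P7 controls and 135, 176, 244 and 444 CPM in P7 Casp2-depleted CMs. At P14 it was 204, 255 and 448 CPM in controls and 461, 536 and 585 CPM in Casp2-depleted CMs. The 3 Casp2-depleted libraries of P14 lay above every P14 control and above every P7 library. How often other genes separated so few libraries in this way was not counted. The change from P7 to P14 was 0.70 ± 0.38 (adjusted p = 0.202) with both genotypes averaged, which is 1.57 above the median of all genes, 1.08 ± 0.53 (adjusted p = 0.304) in Casp2-depleted CMs and 0.33 ± 0.53 (adjusted p = 0.825) in controls. DESeq2 and quantile limma-voom called Nrg1 as higher at P14 than at P7, with both genotypes averaged and in Casp2-depleted CMs. In the latter limma-voom after TMM also did so, and quantile limma-voom called it from P1 to P14. The difference of the genotypes at P14 was 0.80 ± 0.58 (adjusted p = 0.591, edgeR).

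Nrg1 was higher where the no-gene share was higher, with r = 0.834 and rho = 0.845 over the 21 libraries (adjusted p = 6e-05 for both, permutation test). It was 0.949, 0.845 and 0.790 within P1, P7 and P14, and 0.792 without the 2 farthest libraries. With this share in the fit its change from P7 to P14 was -0.21 ± 0.44 (adjusted p = 1). Endothelial cells are the known source of neuregulin in the heart, and their 8 markers summed to 144 to 468 CPM at P7, to 53.2 to 1115 CPM in P14 controls and to 587 to 630 CPM in P14 Casp2-depleted libraries, where Cdh5, Kdr and Egfl7 were at 0. The part of such cells in the Nrg1 reads was not tested. In bulk samples fewer cells of a type and less RNA per cell cannot be told apart.

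Fgfr1, an FGF receptor gene, was at 38.5 to 120 CPM at P7 and 0 to 111 CPM at P14, with 2 of 6 P14 libraries above 80 CPM. The change was -0.71 ± 0.84 (adjusted p = 0.664), and r with the no-gene share was -0.495 and rho -0.516 (adjusted p = 0.0218 for both, permutation test), with -0.033, -0.875 and -0.470 within P1, P7 and P14. For Egfr r was 0.136 and rho 0.300 (adjusted p = 0.574 and 0.205, permutation test).

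No gene of the 8 was called between genotypes by edgeR, DESeq2 or either form of limma-voom. Over all genes tested, the share called between the genotypes was 0% at P1, 0% at P7, 0.167% at P14 and 0.0147% with the days averaged. None of the 8 had an unadjusted p below 0.05 at P1, P7 or with the days averaged, and 2 did at P14, Insr (-1.53 ± 0.59, adjusted p = 0.365) and Erbb4. Without P14 Casp2-depleted replicate 2, Insr was called as lower in Casp2-depleted CMs at P14. No interaction of day and genotype was called for any of the 8 genes by these tools either, beside 0% of all genes called for P1 to P7, 0.0245% for P7 to P14 and 0.0638% for P1 to P14, and 1 of 8, Insr, had an unadjusted p below 0.05 in each of the last 2. Within 1 genotype, no gene of the 8 was called or had an unadjusted p below 0.05 between P1 and P7, beside 0.00982% of all genes in controls and 0.0196% in Casp2-depleted CMs.

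**Figure D5:**
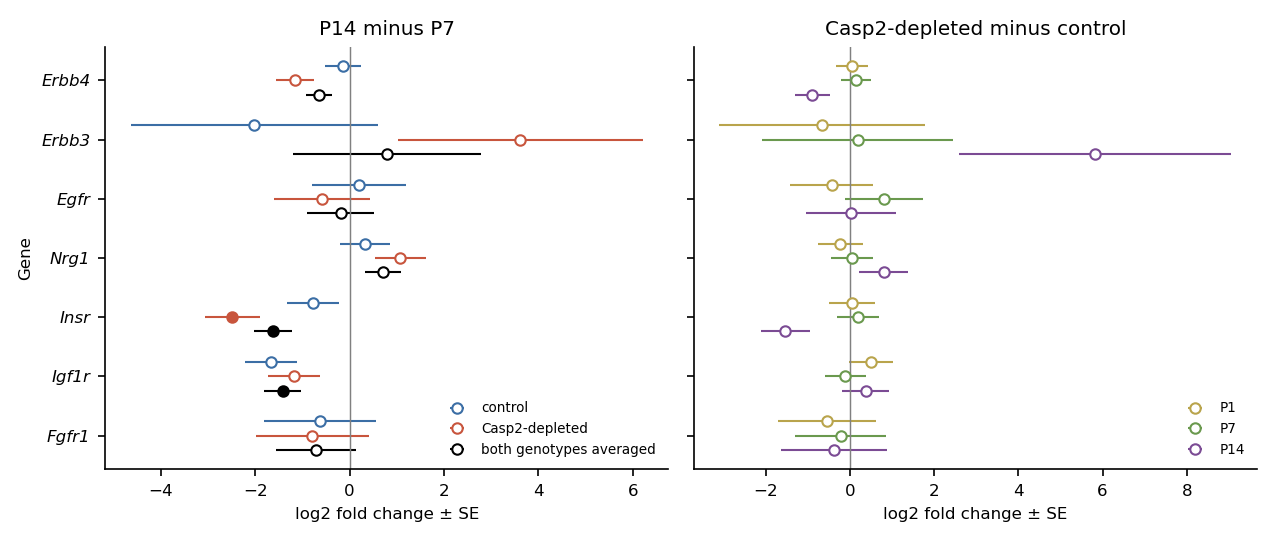
Log2 fold change with its standard error (horizontal axis) for 7 genes, from P7 to P14 by genotype on the left and between genotypes by day on the right. Filled points were called and open points were not, and Erbb2, with no read at P14, is left out. Insr was at -2.48 in Casp2-depleted CMs and -0.77 in controls, and Igf1r at -1.17 and -1.66.

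Some genes that act with these receptors, as ligands, proteases that shed them, adaptors, kinases or restraining proteins, were also lower at P14. Of 92 such genes, chosen by their role but with earlier results of these data known, 79 were tested. From P7 to P14 with both genotypes averaged 14 were called, all lower, as were 1764 of the 1817 genes called in the series. The 14 are 17.7% of the 79, beside the 8.92% of all genes, a description only, since the lists were not blind to these data. The median change of the 79 was -1.23 against -0.87 over all genes. From P1 to P14, 4 of 79 were called, or 5.06%, near the 4.24% of all genes. Between P1 and P7 none was called by edgeR, DESeq2 or limma-voom, with 9 at an unadjusted p below 0.05 and a median of 0.38. Of the 14 calls, those of Adam19, Grb10, Irs2, Ptpn11 and Spry2 were made without each library in turn, and the other 9 were lost without at least 1. The count of 14 ranged from 5 to 15 without 1 library. It was 5 without P7 Casp2-depleted replicate 1, 6 without P7 control replicate 1, 7 without P7 control replicate 2, P14 control replicate 4 or P14 Casp2-depleted replicate 4, and 9 without P7 Casp2-depleted replicate 2 or P14 Casp2-depleted replicate 3.

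Adaptors made up 6 of the 14, out of 12 tested (50%, beside 8.92% of all genes), with a median of -2.08. Irs2, the insulin receptor substrate, had 759 reads over the 8 P7 libraries and 312 over the 7 of P1, and was read in each of them. At P14, where every library had fewer genes read than at P7, it had none. Its pooled level was 100.8-fold above the P14 limit of 3 reads at P7 and 58.95-fold above it at P1. The fall was called from P7 (adjusted p = 1.39e-05, edgeR) and from P1 (adjusted p = 0.000316, edgeR). Irs2 was called from P7 to P14 within each genotype. There the P7 level was 52.3-fold above the limit in controls (adjusted p = 0.0154, edgeR) and 48.5-fold in Casp2-depleted CMs (adjusted p = 0.0139, edgeR). However, leaving out P7 control replicate 2, P14 control replicate 2 or 4, P7 Casp2-depleted replicate 1 or any P14 Casp2-depleted library ended the call of its genotype. Shc1, an adaptor that links receptors to RAS, had 177 reads at P7, 23.5-fold above the P14 limit, and none at P14 (adjusted p = 0.0285, edgeR). Ptpn11, which encodes the phosphatase SHP2, fell from 59.5 to 366 CPM at P7 to 0 to 40.6 CPM at P14, a change of -3.10 ± 0.67 (adjusted p = 0.000191), with no overlap of the days. Frs2, the docking protein of the FGF receptors, changed by -2.03 ± 0.62 (adjusted p = 0.02). Gab2 and Sos2, the adaptors with the highest mean level, were at -0.67 ± 0.43 and -0.70 ± 0.50 and were not called.

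Grb10, which binds the insulin and IGF1 receptors and restrains them, fell from 7.5 to 151 CPM at P7 to 0 to 42.2 CPM at P14, by -3.90 ± 0.68 (adjusted p = 1.03e-06). It was also 1 of 2 genes of these lists called between genotypes at P14, or 2.53% of the 79, beside 0.167% of all genes, a description only. At P14 it had 6 reads over the 3 controls and 123 over the 3 Casp2-depleted libraries, of 2.0, 37.4 and 42.2 CPM, a difference of 4.16 ± 1.03 (adjusted p = 0.0405). The groups overlapped, with 1 Casp2-depleted library at 2.0 CPM and the highest control at 3.5 CPM. The other was Adam19, a membrane protease that can shed neuregulin. It was at 74.3, 93.4 and 246 CPM in P14 controls and 17.02, 17.7 and 40.2 CPM in P14 Casp2-depleted CMs, without overlap, and differed by -2.46 ± 0.60 (adjusted p = 0.0355). Each of the 2 differences between genotypes was called in 3 of 6 fits without 1 library. That of Grb10 was lost without P14 Casp2-depleted replicate 3 or P14 control replicate 2 or 4. That of Adam19 was lost without P14 Casp2-depleted replicate 3 or 4 or P14 control replicate 1. Grb10 was called in 5 of 12 alternative settings and Adam19 in 4. Of the 79 genes, limma-voom called 1 after TMM scaling and 0 in its quantile form. From P7, where it was at 249 to 1168 CPM, Adam19 fell to P14 by -3.40 ± 0.43 (adjusted p = 6.21e-13), and it was called in controls and in Casp2-depleted CMs, in controls not without P7 control replicate 2 or P14 control replicate 2 or 4. With the no-gene share in the fit it was the 1 gene of the 79 still called between P7 and P14. Bace1, another neuregulin protease, was at 0.30 ± 0.75.

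Along the kinase branches, 3 of 9 genes of the RAS and ERK branch (33.3%) and 2 of 17 of the PI3K and AKT branch (11.8%) were called, all lower. Of all genes tested 8.92% were called from P7 to P14, near the share of the PI3K and AKT branch. Mapk3, which encodes ERK1, had 134 reads at P7, 17.8-fold above the P14 limit of 3 reads, and none at P14 (adjusted p = 0.0418, edgeR). Map2k2, its activating kinase, had 540 and 12 reads (-5.47 ± 1.73, adjusted p = 0.0257). Map2k1 and Braf, the best read of the branch, were at -0.23 ± 0.45 and -0.99 ± 0.49, not called. Akt1 had 293 reads at P7 and 12 at P14 (-5.52 ± 1.84, adjusted p = 0.0362), and Gsk3b, a kinase that AKT inhibits, changed by -1.50 ± 0.48 (adjusted p = 0.0268). Rptor, the best read of that branch with Gsk3b, was at -0.41 ± 0.45.

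Among genes that restrain the receptors 1 of 10 was called (10%), near the 8.92% of all genes. This was Spry2, a feedback inhibitor of RAS and ERK signaling. It had 274 reads over all 8 P7 libraries, 36.4-fold above the P14 limit of 3 reads, and none at P14 (adjusted p = 0.00937, edgeR). Spred2 and Cblb, the best read of that list, were at -0.85 ± 0.48 and -1.28 ± 0.68 and were not called. Of the ligands and other receptors 1 was called, Fgf1, from a list of 10 FGF genes tested (10%, near the 8.92% of all genes). Fgf1, the ligand of all FGF receptors, was at 141 to 695 CPM at P7 and 41.3 to 540 CPM at P14 (-1.19 ± 0.40, adjusted p = 0.0375). This call was made in 3 of 12 alternative settings and in 5 of 14 fits without 1 library. It was lost with DESeq2, quantile limma-voom and the replicate block, and without P7 control replicates 1, 2 or 4, P7 Casp2-depleted replicates 1 or 2, P14 control replicates 2 or 4 or P14 Casp2-depleted replicates 3 or 4. None of 10 other ErbB ligand genes was called by edgeR, with 3 at an unadjusted p below 0.05, 2 called by DESeq2 and 1 or 2 by limma-voom. Nrg3, another neuregulin, was the best read of them at 460 ± 200 CPM over the 21 libraries and changed by 0.89 ± 0.35 (adjusted p = 0.0801), and Tgfa, an EGF receptor ligand, by 0.96 ± 0.91. None of 7 insulin and IGF genes tested was called by edgeR, with 1 at an unadjusted p below 0.05, 0 called by DESeq2 and 0 or 1 by limma-voom, Igf1 being at -0.02 ± 0.80 and Igfbp7 at -0.80 ± 1.11. Fgfr2 had the highest level of all FGF genes, 890 ± 308 CPM, but its annotated span of 2962 kb overlaps 71 other genes, so its reads could not be assigned with certainty.

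Likeness was measured over the 21 libraries as Pearson's r of log2 CPM with each of 7998 genes read in at least 15 libraries at 20 CPM or more on average. Libraries of a day share depth and no-gene share, so these are descriptions. Erbb4 was most like Samd4 (r = 0.934), Myocd (0.918) and Zfpm2 (0.895). Insr was most like Mical2 (0.937), Wasf2 (0.926) and Phyh (0.922), and Igf1r was most like Pdlim5 (0.917) and Ivns1abp (0.902). Nrg1 was most like Cntn4 (0.879), Kcnab1 (0.863) and Spata16 (0.844), Egfr was most like Ofcc1 (0.877), Trpm6 (0.864) and 4930471E19Rik (0.837), and Fgfr1 was most like Snx25 (0.882), Atxn2 (0.881) and Gon4l (0.881). Among the 6 of the 8 genes compared, without Erbb2 and Erbb3, the closest pair was Erbb4 and Insr (r = 0.788, rho = 0.756), beside Insr and Igf1r (r = 0.414, rho = 0.651), and Nrg1 ran against Insr (r = -0.603), Erbb4 (r = -0.561) and Igf1r (r = -0.540).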

How the data were processed

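Nuclei of pooled hearts were sequenced as 3′ libraries (QuantSeq, 100-base single reads). The authors trimmed reads with cutadapt 4.0, aligned them to GRCm39 with STAR 2.6.1e and deposited raw counts per Ensembl gene over the whole gene body from HTSeq 2.0.3; strand setting and molecular identifiers are not given in the sources used here. Rows that name no gene (34.3 to 76.1% of uniquely placed reads on no gene) were left out. Symbols came from GENCODE vM39 for 56236 of 56923 identifiers.

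The filter kept genes that summed to 10 reads or more and were read in 3 or more of 21 libraries. They were fitted with edgeR 4.0.16 (TMM, glmQLFit with robust moderation, 6 group means, 15 residual degrees of freedom), p-values were adjusted by Benjamini-Hochberg over all tested genes, and the fit was tested on simulated data. Standard errors are the absolute log2 fold change over the root of F. DESeq2 1.42.0 and limma 3.58.1 were alternatives. Replicates are pools the labels number; p-values measure the spread between pools. Every one of 36 same-group pairs differed by more than sampling noise. Robust moderation was chosen after a fit without it had been seen.

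The genes, the lists and the tests were chosen with earlier results of these data known. Pathway genes are named where called, at most 5 per list and comparison by size of change, or as the 2 of each list with the highest mean CPM, and like genes as the 3 with the highest r; some genes that these rules name are not reported here.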

Additional observations from a re-analysis of the deposited data

Results flagged for a closer look

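In groups of 4 libraries, 30 sets of values were searched for 1 library far from the others, with a gap of over 0.829 of the range, and 4 were found; chance gives about 1 in 20 for values with a continuous spread. In 3 of the 4 the other libraries of the group were at 0, so that any read gives the widest possible gap and this rate does not apply. Erbb2 at 1.499 CPM in P1 Casp2-depleted replicate 4 was the only library of its group with a read, and its share of the Erbb2 and Erbb4 reads, 0.0919%, stood out for the same reason. Erbb3 at 17.6 CPM in P1 Casp2-depleted replicate 1 was likewise alone in its group. Fgfr1 at 120 CPM in P7 Casp2-depleted replicate 1 lay above 38.5 to 43.6 CPM in the other 3.

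The 3 libraries set aside by the study exceeded every control library of their day, in CPM without TMM scaling, in 4 values. Igf1r was at 895 CPM in P1 control replicate 1 against at most 473 CPM, and Erbb2 was at 12.4 CPM there against at most 3.85 CPM. In that library 9.21% of uniquely placed reads fell on no gene. Igf1r was at 633.5 CPM in P14 Casp2-depleted replicate 1 against at most 252 CPM, and Erbb4 at 2959 CPM in P14 control replicate 3 against at most 2618 CPM.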

How the results depend on the processing

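Counts of the 8 genes called were recomputed under 12 alternative settings and without each of 21 libraries. With both genotypes averaged, the 2 called between P1 and P14 became 1 with RLE size factors or DESeq2 and 0 with all 24 libraries, limma-voom in either form, only the groups compared, the no-gene share as a covariate, or no robust moderation. Between P7 and P14 the 2 became 1 with all 24 libraries (Erbb2), quantile limma-voom (Nrg1) or RLE (Insr) and 0 with the covariate. In Casp2-depleted CMs the 1 called became 0 with all 24 libraries, only the groups compared and the covariate, between P1 and P14 also with limma-voom after TMM, and 2 between P7 and P14 with DESeq2 (Insr and Nrg1). Nrg1 was called in place of Insr with quantile limma-voom in both and with limma-voom after TMM between P7 and P14. In controls the 0 between P7 and P14 became 1 (Erbb2) with limma-voom after TMM. The causes were not tested.

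Under a replicate block the count in controls between P7 and P14 was 1 (Igf1r), and no other count of the 8 changed by more than 1.5 times; the genotype difference of Adam19 at P14 was lost. That difference was called in 4 of the 12 settings, and that of Grb10 in 5. Same-numbered libraries correlated by -0.059 to 0.185 over 9 pairs, so the numbers were not shown to pair the libraries.

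Without 1 library each, the counts ranged from 0 to 2 (P1 to P14) and 1 to 2 (P7 to P14) with both genotypes averaged, from 0 to 1 and 0 to 2 in Casp2-depleted CMs, from 0 to 1 in controls between P7 and P14, and from 0 to 1 between genotypes at P14. Beside the libraries named above, P1 control replicates 3 and 4, P1 Casp2-depleted replicates 1 and 4 and P14 control replicate 4 each ended 1 call between P1 and P14. With all 24 libraries the Erbb2 share at P1 differed by -0.28 percentage points between genotypes, against -0.11. No called change of the 8 genes turned its sign, whereas that of Fgf1 from P7 to P14 became 0.33 with the covariate. The median change of all genes from P7 to P14 was -0.87 with TMM, -0.60 with RLE and -0.09 with quantile limma-voom. The 14 other pathway genes called there became 8 with RLE, 26 with limma-voom after TMM and 1 with the covariate. Of the 3 most like genes, 4 of 6 genes kept at least 2 by Spearman's rho. Depth limits Erbb2 and Erbb3, at 104 and 252 reads in all.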
